A study of Mus musculus with 4 samples.

Results

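Broad stretches of open chromatin that lay away from the ends of protein-coding genes, and that were wide in every library, were described in endothelial cells sorted from mouse lung. They were defined as merged ATAC-seq regions called in all 4 peak lists, with the widest peak of each list at least 1200 bp and the region's centre over 2500 bp from either end of any protein-coding gene. The rule was met by 325 regions of 113056 merged regions and of 75395 regions called in all 4 lists. Of 57352 regions called in all 4 lists and as far from gene ends, they were 0.567%, and the other 57027, narrower than 1200 bp in at least 1 list, served for comparison and are called narrower distal regions below. Near gene ends the same width was reached by 880 of 18043 regions (4.88%). The regions were selected on peak calls and widths, so their number and their widths are a description.

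ATAC-seq maps open chromatin by letting a transposase insert sequencing adapters where DNA is exposed. Stretches of open DNA away from annotated gene ends include enhancers, to which transcription factors bind, and start sites from which shorter transcripts of a gene, non-coding RNAs or small structural RNAs are made. Dnmt3a encodes a DNA methyltransferase that places new methyl groups on CpG dinucleotides. CpG-rich start sites are as a rule unmethylated, while enhancers are mostly CpG-poor.

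The 4 libraries came from flow-sorted lung endothelial cells of mice, 2 labelled Dnmt3a knockout (KO) and 2 labelled wild type (WT). The labels state no allele, Cre driver, age or sex. They also do not say that libraries of the same genotype came from separate animals, so tests over libraries measure the spread between these libraries, which may be technical. Each list held positions and widths of peaks on mm10 without scores or reads, and the depth was unknown. The lists held 85091 to 101442 peaks on chromosomes 1 to 19, X and Y. Every library listed a peak no more than 1000 bp from an end of each of 8 endothelial markers (Pecam1, Cdh5, Cldn5, Tie1, Tek, Kdr, Eng and Emcn), and of 8 to 10 of 25 leukocyte, 11 to 13 of 22 epithelial and 15 to 17 of 22 fibroblast and mural markers. KO replicate 2 stood apart in having a peak at 0 of 5 Y-linked genes, against 3 or 4 in the others, and 4 of the broad regions lay on chromosome X. The spread between the 2 KO libraries therefore includes this difference, and its bearing on widths was not tested. The lists also differed in how many wide peaks they held: 3363 peaks of KO replicate 1 (3.95%) reached 1200 bp, against 1555 (1.54%) of KO replicate 2, and 2375 (2.34%) and 2733 (2.80%) of the WT lists.

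The broad regions fell into 5 kinds by what the RefSeq annotation of mm10 (GRCm38.p6) places in them. A protein-coding start site lay in 75 of them. A start site of a long non-coding RNA (lncRNA) alone lay in 20, and a tRNA, snRNA or miRNA gene without a listed start site in 11. Of the rest, 128 lay inside a protein-coding gene and 91 outside. Start sites were taken from RefSeq windows that run from 250 bases before to 50 bases after a start, which cover 17492 of 21887 protein-coding genes (79.9%), so that a region without a listed start may still hold one.

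The start windows are shown because such starts, inside genes and away from their ends, were far more frequent in broad than in narrower distal regions. They were chosen after the values were seen. Each is written 5′ to 3′ on the strand of the gene, as given by RefSeq, with every CG dinucleotide, the target of Dnmt3a, in capitals. They belong to Nol4l and N4bp2, which had the widest regions with a start, and to Hif1a, the hypoxia-inducible factor 1 alpha gene, Zeb2, a zinc finger repressor gene, Lifr, the receptor gene for leukaemia inhibitory factor, and Rapgef5, which encodes an exchange factor for Rap GTPases. The windows lie on GRCm38.p6 at chr2:153444430-153444729, minus strand (Nol4l), chr5:65763271-65763570, plus strand (N4bp2), chr12:73907617-73907916, plus strand (Hif1a), chr2:45110228-45110527, minus strand (Zeb2), chr15:7129322-7129621, plus strand (Lifr) and chr12:117533678-117533977, plus strand (Rapgef5).
Nol4l: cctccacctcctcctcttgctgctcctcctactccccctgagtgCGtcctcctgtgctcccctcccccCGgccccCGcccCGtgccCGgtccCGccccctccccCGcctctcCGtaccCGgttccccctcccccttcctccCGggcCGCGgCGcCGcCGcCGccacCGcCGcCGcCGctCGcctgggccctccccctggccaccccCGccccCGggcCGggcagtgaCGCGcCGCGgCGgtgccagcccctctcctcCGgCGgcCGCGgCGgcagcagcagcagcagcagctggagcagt
N4bp2: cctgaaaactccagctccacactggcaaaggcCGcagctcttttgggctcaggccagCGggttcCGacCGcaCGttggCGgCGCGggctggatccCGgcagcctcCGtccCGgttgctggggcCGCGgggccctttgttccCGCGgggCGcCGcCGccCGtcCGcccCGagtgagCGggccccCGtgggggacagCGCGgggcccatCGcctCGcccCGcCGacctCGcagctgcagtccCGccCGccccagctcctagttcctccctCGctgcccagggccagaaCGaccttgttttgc
Hif1a: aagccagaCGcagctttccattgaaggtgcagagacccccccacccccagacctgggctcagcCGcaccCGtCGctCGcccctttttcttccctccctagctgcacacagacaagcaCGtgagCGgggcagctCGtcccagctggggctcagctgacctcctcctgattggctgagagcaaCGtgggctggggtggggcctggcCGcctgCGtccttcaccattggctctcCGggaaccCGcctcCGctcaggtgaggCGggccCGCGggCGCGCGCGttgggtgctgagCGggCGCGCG
Zeb2: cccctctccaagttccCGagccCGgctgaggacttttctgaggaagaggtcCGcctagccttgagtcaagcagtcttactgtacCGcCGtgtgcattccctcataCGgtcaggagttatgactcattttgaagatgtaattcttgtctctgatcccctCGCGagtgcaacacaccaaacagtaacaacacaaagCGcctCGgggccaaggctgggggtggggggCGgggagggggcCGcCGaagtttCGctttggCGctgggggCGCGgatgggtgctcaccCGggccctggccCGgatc
Lifr: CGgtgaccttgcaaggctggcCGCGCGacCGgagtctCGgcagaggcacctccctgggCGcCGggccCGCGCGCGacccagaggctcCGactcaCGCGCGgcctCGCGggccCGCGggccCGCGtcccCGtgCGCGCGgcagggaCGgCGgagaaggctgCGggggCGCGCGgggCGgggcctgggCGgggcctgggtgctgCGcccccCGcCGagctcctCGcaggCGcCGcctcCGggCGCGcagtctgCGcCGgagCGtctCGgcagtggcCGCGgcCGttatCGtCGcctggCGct
Rapgef5: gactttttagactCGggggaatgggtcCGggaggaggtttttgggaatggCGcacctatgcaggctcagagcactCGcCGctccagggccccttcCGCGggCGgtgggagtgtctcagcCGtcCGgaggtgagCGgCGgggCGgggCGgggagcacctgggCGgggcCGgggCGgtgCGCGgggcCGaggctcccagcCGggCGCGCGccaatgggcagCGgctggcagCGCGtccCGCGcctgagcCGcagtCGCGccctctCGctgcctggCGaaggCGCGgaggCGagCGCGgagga

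These windows held 34 CG dinucleotides at Nol4l, 34 at N4bp2, 25 at Hif1a, 19 at Zeb2, 53 at Lifr and 39 at Rapgef5. The median over all 21263 protein-coding windows was 13. The Lifr window had the highest GC content of the set, 81.3%, and the Zeb2 window the lowest, 60.7%. In each of these genes the region lay inside the gene, 37157 bp from the nearer end of a protein-coding gene at Nol4l, 3719 bp at N4bp2, 6743 bp at Hif1a, 7566 bp at Zeb2, 38807 bp at Lifr and 17705 bp at Rapgef5, where distances are from the region's centre.

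Start sites were far more frequent in broad than in narrower distal regions. A protein-coding start lay in 75 of 325 broad regions (23.1%, 95% Wilson interval 18.8 to 28.0) and in 980 of 57027 narrower ones (1.72%, 1.62 to 1.83). A lncRNA start lay in 27 (8.31%, 5.77 to 11.8) against 983 (1.72%, 1.62 to 1.83), and either kind in 95 (29.2%, 24.6 to 34.4) against 1902 (3.34%, 3.19 to 3.49). Intervals cover counting error only, and regions of 1 genome are not replicates. The share was higher in each wider class of distal regions, with width taken from the narrowest list. It was 1.11% of 13482 regions below 300 bp, 3.17% from 400 to below 600 bp, 13.3% from 800 to below 1000 bp, 19.2% from 1000 to below 1200 bp, 28.9% from 1200 to below 1500 bp and 30.5% of the 59 regions of 1500 bp or more. Intervals of the last 2 classes overlap. A wider region can hold more starts by its length alone. With the same stretch counted in every region, 150 bp to either side of its centre, the shares were 7.69% (25 regions, 5.26 to 11.1) for broad and 2.01% (1148 regions, 1.90 to 2.13) for narrower distal regions. By width class this share was 5.76% from 800 to below 1000 bp and 7.47% from 1000 to below 1200 bp. Above the floor it was 7.14% from 1200 to below 1500 bp and 10.2% (6 regions) from 1500 bp. On this measure regions just below the floor were close to broad ones. The nearest genes had a listed start window about equally often in both sets, 225 of 287 (78.4%) and 8703 of 11025 (78.9%).

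**Figure D1:**
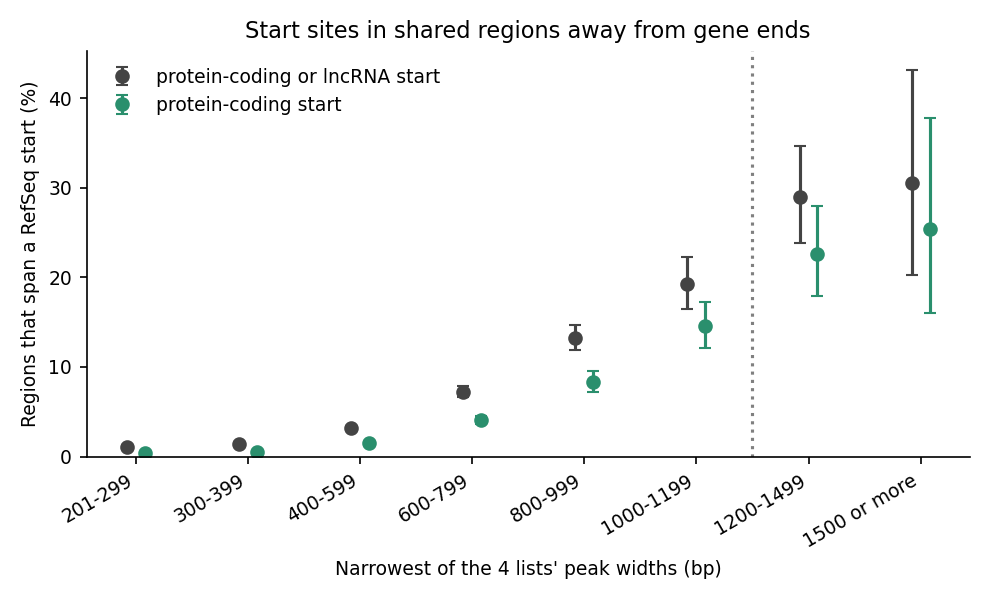
Share of regions called in all 4 lists and over 2500 bp from gene ends that span a RefSeq start, by the narrowest of the 4 lists' peak widths in bp, with 95% Wilson intervals as bars. The dotted line marks the floor of 1200 bp. The share with any start rises from 1.11% in the narrowest class to 28.9% and 30.5% in the 2 classes above the floor.

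Seen from the annotation, RefSeq listed 2845 protein-coding starts over 2500 bp from any gene end. Of these, 1213 (42.6%) lay in a region called in all 4 lists and 96 (3.37%) in a broad one. LncRNA starts as far from gene ends numbered 9468, of which 12.1% lay in a region of all 4 lists and 35 (0.370%) in a broad one.

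Most protein-coding start windows in broad regions were CpG-rich. These windows numbered 99, from 75 genes, and held a median of 27 CG dinucleotides, between 4 and 57, at a median GC content of 66.3%. A ratio of observed to expected CpG above 0.6 together with a GC content above 50% was met by 78 of the 99 (78.8%). It was met by 590 of 1116 protein-coding windows in narrower distal regions (52.9%), by 8051 of 10807 in regions near gene ends (74.5%), and by 99 of 1632 that lay as far from gene ends and in no region of all 4 lists (6.07%). The 35 lncRNA windows in broad regions had a lower median of 12 CG dinucleotides, and 15 of them (42.9%) met both limits. On the share that met both limits, the internal protein-coding starts of broad regions lay nearer to starts at gene ends than to internal starts without a shared peak.

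Of the short motifs searched on both strands of the windows, GGGCGG, a core bound by Sp and KLF factors, was found in 80 of the 99 protein-coding windows (80.8%), against 633 of 1116 (56.7%) in narrower distal regions and 46.2% of all protein-coding windows, the order also used for the motifs that follow. CCAAT, bound by NF-Y, was found in 27 (27.3%), against 34.9% and 38.2%. TATAAA was found in 1 (1.01%), against 6.27% and 12.6%. The ETS motif CCGGAAGT was in 2 (2.02%), against 5.02% and 5.15%, the AP-1 motif TGACTCA in 5 (5.05%), against 4.21% and 4.66%, and the E-box CACGTG in 9 (9.09%), against 7.53% and 7.84%. The palindromic NRF1 motif was in 0 of the 99, against 1.08% and 1.33%. Protein-coding windows in regions near gene ends held GGGCGG in 69.8%, CCAAT in 38.7% and TATAAA in 5.93%. They held the ETS motif in 8.94%, AP-1 in 3.01%, the E-box in 10.7% and NRF1 in 2.32%. GGGCGG contains a CG dinucleotide, so its share follows CpG content in part by its letters. A match is a description of the sequence and not a binding site. Among the windows shown, the Zeb2 window held both GGGCGG and TGACTCA, the Rapgef5 window GGGCGG and CCAAT, and the Hif1a window CCAAT and CACGTG.

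In each library the widest peak usually covered the start and extended further into the transcribed side. Among the 71 broad regions with exactly 1 start position, the start lay inside the widest peak in 69, 69, 70 and 70 regions in KO replicates 1 and 2 and WT replicates 1 and 2. The median peak ran 554, 507, 536 and 579 bp upstream of the start and 907, 863, 866 and 831 bp downstream of it in the same order. More of the peak lay downstream than upstream in all 4 lists in 41 of the 71 regions and more lay upstream in all 4 lists in 24. At Rapgef5 the peaks ran 331 to 396 bp upstream and 962 to 1003 bp downstream, and at N4bp2 278 to 356 bp upstream and 1757 to 1772 bp downstream. At Lifr the order was the other way, with 911 to 921 bp upstream and 450 to 611 bp downstream. The KO and WT medians overlapped for the upstream length, 507 and 554 bp against 536 and 579 bp. For the downstream length 863 and 907 bp in KO also overlapped 831 and 866 bp in WT.

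**Figure D2:**
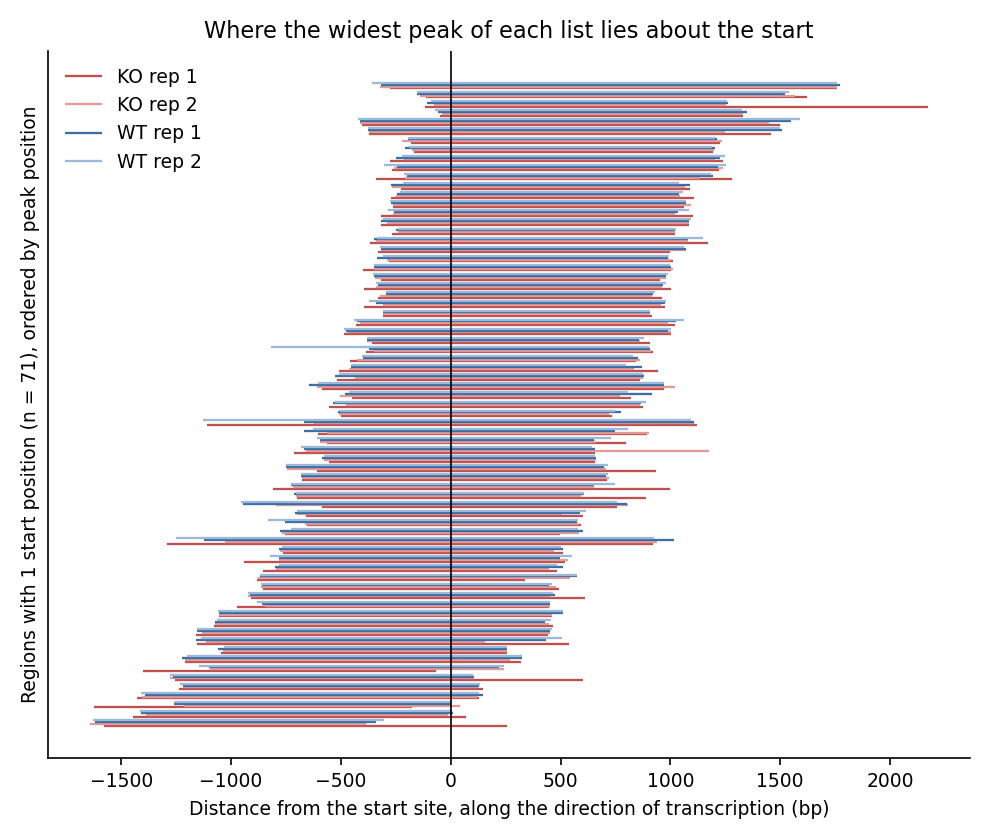
Extent of the widest peak of each list about the start site, in bp along the direction of transcription, for the 71 broad regions with 1 start position. Each line is 1 library and regions are ordered by where the peak lies. Peaks of the 4 libraries end close together in most regions, and 41 regions have more peak downstream than upstream in all 4 lists.

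Widths are given in the order KO replicate 1, KO replicate 2, WT replicate 1 and WT replicate 2 from here on. The region at the Nol4l start measured 2213, 1967, 2139 and 2177 bp. At N4bp2 the widths were 2036, 2079, 2091 and 2114 bp, with both KO values below both WT values. Lifr had 1523, 1372, 1390 and 1388 bp, so that 1 KO list gave the widest and the other the narrowest peak. Zeb2 had 1541, 1422, 1428 and 1483 bp and Hif1a 1305, 1286, 1254 and 1238 bp. At Hif1a both KO peaks were wider than both WT peaks. After the quantile normalisation described below, the log2 difference, KO minus WT, was 0.09 at Hif1a and -0.004 at N4bp2. Rapgef5 had 1400, 1303, 1299 and 1321 bp. Other regions with a protein-coding start among the widest lay in Triobp, which encodes an actin-binding protein (1904, 1863, 1964 and 2016 bp), and Zmym5, a zinc finger gene (1762, 1760, 1759 and 1757 bp). The Zmym5 widths were almost the same in all lists.

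Genes of small structural RNAs also lay in broad regions more often than in narrower ones. RNA polymerase III transcribes tRNA genes from promoter elements inside the gene. A tRNA gene lay in 10 broad regions (3.08%, 1.68 to 5.57) and in 98 narrower distal regions (0.172%, 0.141 to 0.209), and snRNA genes in 4 (1.23%) against 41 (0.0719%). Here too a wider region can hold more by its length alone, and no stretch of equal length was counted for these genes. The 10 regions held 18 of the 408 tRNA genes listed, of which 202 lay in any region called in all 4 lists. The 2 regions with most of them held 4 tRNA genes each. One of these lay on chromosome 1, 171101768 to 171103262, with widths of 1459, 1443, 1491 and 1468 bp. The other lay on chromosome 3, 19627884 to 19629315, with 1330, 1422, 1385 and 1377 bp. KO widths lay below WT widths on chromosome 1 and overlapped them on chromosome 3. After quantile normalisation the log2 differences, KO minus WT, were 0.003 on chromosome 1 and 0.02 on chromosome 3. A region on chromosome 11, 101657724 to 101659092, covered Rnu2-10, a U2 snRNA gene, with 1353, 1341, 1349 and 1323 bp.

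One broad region covered the let-7i microRNA gene Mirlet7i, on chromosome 10, 122985295 to 122986611, and measured 1278, 1308, 1254 and 1297 bp. It lay 6107 bp outside the nearest protein-coding gene, Mon2. The let-7 family is known for repressing growth-promoting messages and for its rise during differentiation. Both mature arms from RefSeq (GRCm38.p6, minus strand, chr10:122985698-122985719 and chr10:122985642-122985663) are shown with the seed, bases 2 to 8, in capitals, to identify the miRNA in this region.
mmu-let-7i-5p: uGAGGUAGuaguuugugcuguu
mmu-let-7i-3p: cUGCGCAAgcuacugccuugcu
A second miRNA gene, Mir1893, lay in a broad region inside Epc1, with widths of 1439, 1413, 1425 and 1418 bp. The lists differed by little at both miRNA genes, and KO and WT widths overlapped.

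The widest regions of all were at sequences present in many copies. The first lay on chromosome 17, 39842996 to 39848827, over Rn18s-rs5 and AY036118. This is the stretch of the reference that carries ribosomal DNA sequence, and cells hold many copies of ribosomal DNA. Its widest peaks measured 5812, 3435, 3504 and 3531 bp. KO replicate 1 listed it as 1 peak and the other libraries as 2, 2 and 3. The next lay on chromosome 1, 24611608 to 24616167, over the pseudogenes Gm10222 and Gm10925, in a known nuclear copy of mitochondrial sequence, with 4478, 2493, 3973 and 3972 bp in 1, 3, 2 and 2 peaks. KO replicate 1 was the widest and KO replicate 2 the narrowest at both. Of the 325 regions 6 overlapped a pseudogene (1.85%), against 0.835% of narrower distal regions, again without allowing for their length. How reads matching several places were treated was not given in the sources used here, and its part in these 2 widths was not tested.

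The rest of the 15 widest regions, ranked by the narrowest of the 4 lists, lay as follows. Inside genes were regions of Bbc3, which encodes the apoptosis inducer PUMA (1926, 2041, 2062 and 2055 bp), Baz1a, a chromatin remodelling subunit (1935, 1854, 1879 and 1914 bp), Slco3a1, an organic anion transporter (1800, 1784, 1839 and 1817 bp), and Zbtb46, a zinc finger transcription factor known from dendritic and endothelial cells (2049, 1739, 2045 and 1998 bp). Both KO values lay below both WT values at Bbc3 and Slco3a1 and overlapped them at Baz1a and Zbtb46. After quantile normalisation the log2 difference, KO minus WT, was -0.02 at Bbc3 and 0.01 at Slco3a1. Outside genes, a region lay 555946 bp from the end of Zfp608, the nearest gene (2200, 1932, 1908 and 1904 bp), with both KO values above both WT values. Another lay 100261 bp from Mpdz, a PDZ scaffold gene (1840, 1760, 1806 and 1795 bp). Regions nearest Spen (2230, 1734, 1779 and 2221 bp) and Phb (2263, 1749, 2239 and 1721 bp) were each wide in 1 KO and 1 WT list and narrower in the other 2. The region nearest Prl2c3, over the pseudogene Gm2399, was wide in WT replicate 2 alone (1762, 1774, 1770 and 2605 bp).

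**Figure D3:**
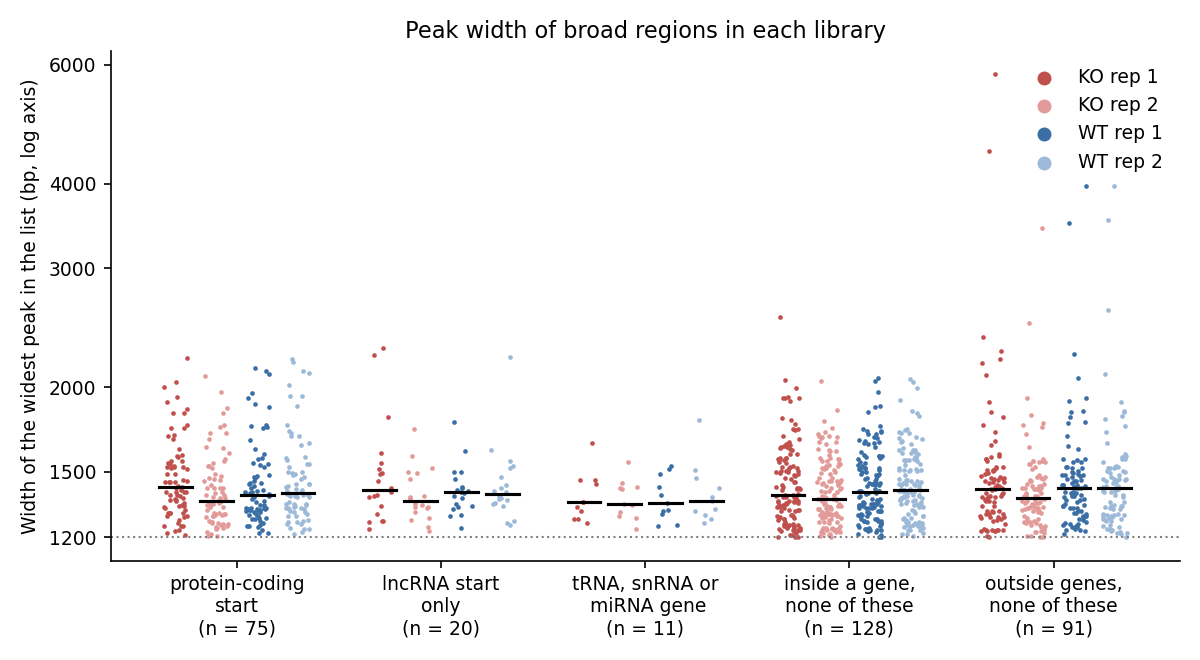
Width in bp (log axis) of the widest peak in each library for the 325 broad regions, by what lies in them. Points are regions, black bars are medians and the dotted line is the floor of 1200 bp. Medians lie between 1343 and 1424 bp in every kind and library, and the points above 3000 bp are the 2 multicopy regions.

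Other aspects of location differed less. The counts below take in the regions with a start site. Broad regions without a start site or small RNA gene lay inside a protein-coding gene in 128 cases and outside in 91. Of all 325 broad regions 208 (64.0%, 58.6 to 69.0) lay inside a protein-coding gene, against 55.1% (54.7 to 55.5) of narrower distal regions. More than 50 kb away from all such genes were 29 (8.92%, 6.28 to 12.5), against 16.4% (16.1 to 16.7). The median distance to the nearest gene end was 18772 bp, against 26374 bp, and the farthest region lay 606653 bp away. Chromosome 2 held most of them (34, 10.5%, against 8.04% of narrower regions). Chromosome X held 4 (1.23%, against 1.93%) and chromosome Y 0 of 325, which allows a share of up to 0.923%, against 0.0298% of narrower regions. The rule asked for a call in every list, and KO replicate 2 had a peak at 0 of 5 Y-linked genes. Broad regions were rarely neighbours of each other: 8 had another within 50 kb. Within 10 kb they had a mean of 1.44, 1.77, 1.75 and 1.66 other peaks, against 1.61, 1.96, 1.90 and 1.84 for narrower distal regions, and 57 had none in any list. Broad regions with a protein-coding start had fewest, with 1.13, 1.41, 1.40 and 1.36 other peaks, and those inside genes without such features had most except in KO replicate 2, with 1.63, 1.98, 1.97 and 1.86.

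Few genes had such a region nearby. Of all 21887 protein-coding genes, 287 (1.31%) were the nearest protein-coding gene, within 50 kb, of a broad region, and of 294 genes in 15 lists 13 were. In the lists with any, the share ran from 5% to 14.3%, on 1 to 3 genes each. Narrower distal regions were nearest to 50.4% of all genes and to 45.5% to 95.2% of the genes of each list described here, with lung epithelium the only one below the share of all genes. Pan-endothelial surface and junction genes had a broad region at 0 of 26, aerocyte genes at 0 of 14, and venous and lymphatic genes at 0 of 16. Markers of leukocytes, of lung epithelium and of fibroblasts and mural cells had one at 0 of 25, 0 of 22 and 0 of 22. The lists overlap and were not tested as sets.

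Among endothelial transcription factors, 2 of 34 had a broad region. It lay inside Epas1, which encodes hypoxia-inducible factor 2 alpha, on chromosome 17, 86814078 to 86815814, 18464 bp from a gene end, and measured 1643, 1690, 1708 and 1614 bp. Inside Erg, the ETS factor gene of endothelial identity, it lay 90032 bp from a gene end, with 1357, 1265, 1314 and 1300 bp. KO and WT widths overlapped in both genes.

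The Notch pathway had 3 of 21 genes (14.3%), each with 1 region: Maml3, a coactivator of Notch transcription (1632, 1573, 1581 and 1592 bp), Dll4, the endothelial Notch ligand (1421, 1396, 1383 and 1389 bp, 11053 bp outside the gene), and Lfng, a glycosyltransferase that modifies Notch receptors (1225, 1245, 1245 and 1224 bp, 10356 bp outside). Both KO values exceeded both WT values at Dll4, by a margin smaller than the spread of the KO pair. Dll4 was also the 1 of 15 arterial genes with a region. BMP and TGF-beta pathway genes had 2 of 33. They were Bmpr2, the BMP receptor gene mutated in heritable pulmonary arterial hypertension, with a region 24661 bp outside the gene (1428, 1431, 1422 and 1432 bp), and Ltbp1, which encodes a latent TGF-beta binding protein (1255, 1306, 1278 and 1266 bp). The Bmpr2 widths lay within 10 bp of each other. Ptprb, the vascular endothelial protein tyrosine phosphatase gene, stood for both the VEGF and angiopoietin list (1 of 19) and the general capillary list (1 of 14), with 1423, 1414, 1331 and 1408 bp. Both KO values at Ptprb exceeded both WT values, by a margin smaller than the spread of either pair.

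Genes of the DNA methylation machinery had 2 of 16. A broad region lay inside Dnmt3a itself, on chromosome 12, 3833687 to 3835333, 32951 bp from the nearer gene end, with 1562, 1618, 1647 and 1616 bp. It was listed in both KO libraries at widths close to those of WT. The labels do not say which part of the gene was deleted, so this region does not check the genotype. Mbd2, a reader of methylated CpG, had a region 15316 bp outside the gene (1481, 1421, 1444 and 1423 bp). YAP, TAZ and TEAD pathway genes had 1 of 20, Amotl2, an angiomotin-like gene (1423, 1358, 1426 and 1402 bp). KO and WT widths overlapped at Dnmt3a, Mbd2 and Amotl2.

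**Figure D4:**
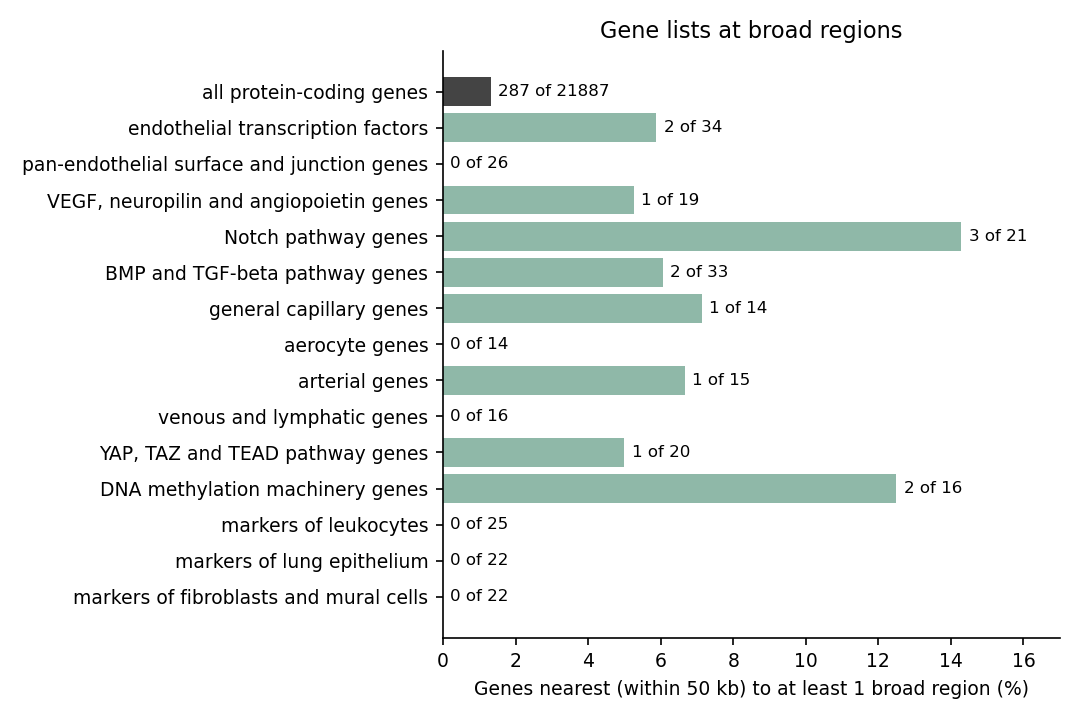
Percent of the genes of 14 of the lists that were the nearest protein-coding gene, within 50 kb, of at least 1 broad region, with the counts beside the bars. The dark bar is all 21887 protein-coding genes at 1.31%, and no list shown has more than 3 genes with a region.

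Of the 287 genes, 7 had more than 1 broad region. Disc1, a scaffold gene named for a schizophrenia translocation, and Gse1 had 3 each, all inside the gene. The Disc1 regions measured 1660, 1717, 1709 and 1678 bp, then 1419, 1430, 1433 and 1412 bp, and then 1511, 1215, 1204 and 1259 bp. The last of them was wide in KO replicate 1 alone. At Gse1 the regions measured 1765, 1620, 1666 and 1688 bp, then 1249, 1264, 1234 and 1253 bp, and then 1201, 1337, 1247 and 1261 bp. Those with 2 each included Bcl2l1, which encodes the survival protein BCL-XL, Itpr1, a calcium release channel of the endoplasmic reticulum, Mthfd1l, a mitochondrial folate enzyme, and Zfp423. One of the Bcl2l1 regions covered a protein-coding start (1305, 1355, 1342 and 1321 bp), and the other, inside the gene as well, did not (1735, 1521, 1872 and 1833 bp).

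The position of broad peaks repeated closely between libraries. The stretch common to the widest peaks of all 4 lists was a median of 91.9% of the merged region, with 49.3% at the lowest. Edges of the widest peaks lay a median of 12 bp apart between the WT lists and 34 bp apart between the KO lists. Between genotypes the medians were 16.5 and 17.5 bp for KO replicate 2 with the WT lists and 25 and 30 bp for KO replicate 1. The 3 pairs with KO replicate 1 thus had the largest offsets, whether within or between genotypes. In narrower distal regions the same medians ran from 19 bp (WT pair) to 38 bp (KO pair). The widest list exceeded the narrowest by a median factor of 1.07 over the 325 regions, and 225 regions stayed within a factor of 1.1. The width floor was reached in at least 1 list by 1549 distal regions called in all 4 lists. Those below it in any list had been left out, so the closeness of widths and edges describes the regions that stayed.

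Larger spreads in width went with a difference in how many peaks a list held in the region. In 288 regions every list held 1 peak, and the widest list exceeded the narrowest by a median factor of 1.06 and at most 1.45. In the other 37 at least 1 list held 2 or more peaks while another held fewer, with a median factor of 1.36 and at most 1.84. All 9 regions with a factor over 1.5 were among these 37, as were 31 of the 47 with a factor over 1.2. Regions with more than 1 peak numbered 5, 32, 19 and 16 in the order used for widths.

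The comparison of KO with WT asked whether loss of Dnmt3a altered how wide these regions were. Median widths were 1409 and 1367 bp in KO and 1398 and 1405 bp in WT, that is 1388 ± 29.7 bp and 1401.5 ± 4.95 bp (SD, n = 2 each). The rule required 1200 bp in all 4 lists, so a region that fell below this width in either genotype had been left out, and the width values that follow are a description of the regions that stayed. Both WT values lay between the KO values. Without KO replicate 2 the difference turned from -13.5 to 7.5 bp. The number of other peaks within 10 kb, which the rule did not use, was 1.61 ± 0.233 in KO and 1.70 ± 0.0696 in WT (SD, n = 2 each, two-sided exact permutation p = 1, where 2 against 2 can reach 0.333 at the lowest). That difference turned from -0.0969 to 0.0677 without KO replicate 1. With limma on quantile-normalised log2 widths over all 75395 regions called in all 4 lists, 0 of the 325 broad regions differed after Benjamini-Hochberg adjustment, as did 0% of all regions. At an unadjusted limma p under 0.05 the counts were 0 of 325 and 3665 of all (4.86%). With KO replicate 1 left out, 49 broad regions wider in KO and 10 wider in WT passed the unadjusted threshold, and with KO replicate 2 left out 15 and 23, with 0 passing after adjustment in both. The median log2 difference, KO minus WT, was 0.02 over the broad regions and 0.01 over all regions tested, and 273 of the 325 lay within 0.1 of 0. The central 90% ran from -0.14 to 0.15, and over all regions, which had no width floor, from -0.40 to 0.36. The floor itself narrows the range of differences, so nothing particular to broad regions is read from these shares. Simulated shifts of 0.5 and 1 on the log2 scale were recovered after adjustment in 0 of 34 and 1 of 33 broad regions. Shifts of 2 were recovered in 25 of 33, so that smaller changes than that were mostly out of reach of this fit. The simulated widths were not held to the floor of 1200 bp. These counts therefore describe the fit alone, as a real region below the floor in any list was left out.

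Counted without a model, both normalised KO widths exceeded both WT widths in 35 broad regions (10.8%), against 20.4% of all regions tested, and both WT widths exceeded both KO widths in 18 (5.54%), against 14.2%. With the deposited widths the numbers were 29 (8.92%), against 7.28%, and 73 (22.5%), against 27.0%. The shares over all regions are again not held to a width floor. Normalisation turned which direction was the more frequent, in broad regions as in all. KO replicate 2 had the narrowest peak in 133 of the 325 regions and KO replicate 1 the widest in 115, so the KO pair lay apart at both ends. KO replicate 2 alone, with 3 other lists at 1200 bp or more, kept 175 further regions out, against 37, 11 and 8 for KO replicate 1, WT replicate 1 and WT replicate 2. Without KO replicate 2 the rule gave 499 regions in place of 325.

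The 4 largest differences in each direction, among regions whose KO and WT widths did not overlap, all lay where the lists differed in their number of peaks. The region 14370 bp from Rfx8, a gene of the RFX factor family, measured 2377, 1305, 1293 and 1296 bp, with a log2 difference of 0.48 ± 0.24 (SE; limma adjusted p = 0.948). KO replicate 1 listed 1 peak there and the other libraries 2 each, of which the wider one was counted. With the widths of all peaks in the region summed, the values were 2377, 2100, 2062 and 1990 bp and the difference was 0.19. In Mllt10, a leukaemia fusion partner gene, KO replicate 2 held 1 peak of 1835 bp and the others 2 peaks each (1368, 1327 and 1326 bp for the wider one), and the difference of 0.28 was 0.02 with summed widths and -0.04 without KO replicate 2. In Slc9a3r2, a PDZ scaffold gene, and Mnt, a repressor gene of the MYC network, KO replicate 1 alone had a single peak (1861 and 1564 bp), and differences of 0.26 and 0.21 were 0.04 and 0.09 with summed widths. In all 4 the width far from the other 3 came from 1 KO library. The Rfx8 difference was 0.15 without KO replicate 1 and 0.80 without KO replicate 2, and the Mllt10 difference was 0.61 without KO replicate 1. The Slc9a3r2 difference was 0.15 without KO replicate 1.

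Wider in WT were the regions nearest Psd2 (1716, 1223, 1926 and 1845 bp, log2 difference -0.34 ± 0.14, SE; limma adjusted p = 0.948), Rreb1, a zinc finger factor gene of Ras signalling (1424, 1488, 1525 and 2205 bp), Specc1 (1932, 1322, 1971 and 2036 bp) and Plac8 (1504, 1236, 1659 and 1650 bp). At Psd2, Specc1 and Plac8 KO replicate 2 alone held 2 peaks, and at Rreb1 WT replicate 2 alone held 1. With summed widths the differences of -0.34, -0.30, -0.28 and -0.24 became -0.06, -0.03, -0.08 and -0.14. The signs stayed, at a smaller size in all 4. The Rreb1 difference was -0.55 without WT replicate 1, -0.06 without WT replicate 2 and -0.16 without KO replicate 1. At Specc1 it was -0.46 without KO replicate 1 and -0.11 without KO replicate 2, and at Psd2 -0.20 without KO replicate 2.

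**Figure D5:**
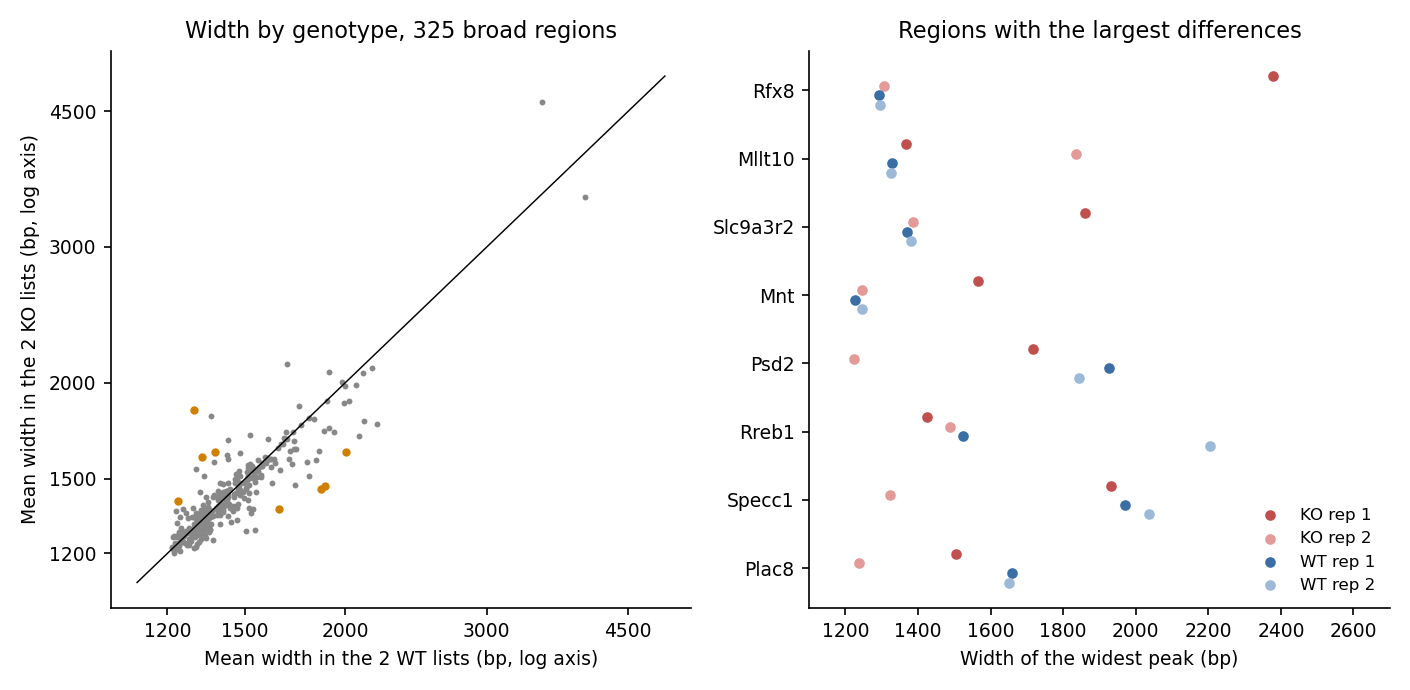
Left, mean width in the 2 KO lists (vertical) against the 2 WT lists (horizontal) in bp (log axes) for the 325 broad regions. The line marks equal width. In orange are 8 regions, those with the largest differences in each direction among regions whose KO and WT widths did not overlap. Right, the width of the widest peak in each library for those 8 regions. Most points lie along the line, and at Rfx8, Slc9a3r2 and Mnt KO replicate 1 alone lies to the right.

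Next to the width limit, the last regions inside it lay in Pcdhga9, a clustered protocadherin gene (1241, 1292, 1200 and 1272 bp), and Gse1 (1201, 1337, 1247 and 1261 bp). The first outside it lay in Nedd4l (1198, 1537, 1568 and 1533 bp) and 136919 bp from Arglu1 (1198, 1293, 1304 and 1275 bp). At both of these KO replicate 1 fell short by little. The limit cuts a continuous range: 130 broad regions had a narrowest width below 1300 bp, and 240 other distal regions had one from 1100 to below 1200 bp.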

How the data were processed

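ATAC-seq peaks of flow-sorted lung endothelial cells were analysed for 2 Dnmt3a KO and 2 WT libraries, grouped by their titles. Per the submitters' processing notes, reads were handled with cutadapt, Bowtie2 and Picard on mm10. For the peak caller, its threshold, read filters and any transposase shift, nothing is stated: they are not given in the sources used here. Each deposited list holds positions and, as its only other measurement, peak width in bp, as deposited by the authors and without scores, read counts or scaling, per the file headers. Read depth is unknown.

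Peaks on chromosomes 1 to 19, X and Y (92 to 134 others per list were left out) were merged wherever they overlapped by at least 1 bp. Gene spans, start windows and miRNAs came from RefSeq GRCm38.p6. In regions common to the 4 lists, widths were quantile-normalised on the log2 scale and compared with limma with a variance trend, adjusted by Benjamini-Hochberg over all 75395 regions, at an adjusted p under 0.05. Values per library were compared by exact permutation. Named regions were the 15 widest, genes with most regions, the 3 widest per gene list, the 4 largest non-overlapping differences each way, and those next to the limit; further ones were chosen after their values were seen. The members and lists were chosen with earlier results of these data known. Merging was tested on simulated intervals and limma on simulated widths over 75395 regions, with 3 false calls. Alternatives covered the width and distance limits, merging, normalisation, the replicate block and each library left out. Position along the gene was left out, since too few genes had a strand in the tables. A gene list and a gene with more than 1 region are not reported here. Genome sequence outside start windows was not used here. The tools were R 4.3.3 with limma 3.58.1, and scipy 1.17.1, pandas 2.3.3, numpy 2.4.6 and matplotlib 3.10.9 under Python 3.11.15.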

Additional observations from a re-analysis of the deposited data

How the results depend on the processing

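The number of broad regions followed the limits: 1048 with a floor of 1000 bp, 59 with 1500 bp and 635 with summed widths, and 333 to 499 without each library, the 499 without KO replicate 2. The share with a RefSeq start was 22.3% with the 1000 bp floor, 36.6% at over 1000 bp from a gene end, and 26.3% to 28.8% without each library, 24.6% at the larger distance limit and 28.0% with the start inside all 4 peaks. The share inside genes was 69.5% with the 1500 bp floor, 70.4% at over 1000 bp, and 61.9% to 64.4% without each library. List genes with a region, 13 at first, numbered 34 with the 1000 bp floor, 3 with 1500 bp, 26 with summed widths, 8 within 10 kb, and 13 to 20 without each library. Broad regions called by limma after adjustment stayed at 0 under each normalisation, with the replicate block, and without each library, and the unadjusted count was 7 with summed widths (3 wider in KO, 4 in WT) against 0. The difference in median width ranged from -34.5 to 7.5 bp without each library, turning without KO replicate 2. That in neighbouring peaks ranged from -0.262 to 0.0677, turning without KO replicate 1, and was 0.0723 with lists of equal length; the cause was not tested. The median edge offset ranged from 16.5 to 30 bp, without each library. The Mllt10 log2 difference turned to -0.0389 without KO replicate 2 and was 0.61 without KO replicate 1. The replicate block left the differences in median width (-13.5 bp) and neighbours (-0.0969) as they were, and moved the regions at an unadjusted p under 0.05 from 3665 to 3843 of all. Same-numbered libraries did not deviate together (correlation -0.0854 over 75395 regions), so the numbers are not taken as pairs. Without the 2 multicopy regions, 323 were left, with a start in 29.4% and a difference in median width of -17.5 bp. The settings for starts, some of those for location and gene lists, the offset without each library, the multicopy regions and the fit without a variance trend were chosen after seeing the data. Read depth was unknown, and the peak lists set what widths could show.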
